A study of Mus musculus with 18 samples.

Results

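The genes described here encode the subunits of the proteasome in mouse distal colon. They are the genes whose single symbol in the array's annotation begins with Psma, Psmb, Psmc, Psmd or Psme followed by a number, and each was represented by the probe set with the highest mean. The rule found 44 genes, of which 42 were among the 12870 genes tested for the whole series. Of those 42, 40 encode proteasome subunits, 19S assembly chaperones or activators. The other 2, Psmc3ip, a cofactor of meiotic recombination, and Psme3ip1, which encodes a partner of the activator PA28 gamma, met the symbol rule without being subunits. Psma8, the testis-specific alpha subunit, and Psmb11, the thymus-specific catalytic subunit, fell below the filter on low signal, with median signals of 69.0 (range 16.7 to 156) and 30.8 (18.9 to 124) over the 18 arrays. Psme2 is not analysed here, because its probe set carried a second symbol.

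Total RNA of distal colon, cut about 0.5 cm above the anus, was hybridised to Affymetrix whole-genome mouse arrays. Mice had been kept for 2 weeks in a cycle of 12 h light and 12 h dark (lights on from hour 7 to hour 19) and could eat at any time. Colon was collected at 8am, 12pm, 4pm, 8pm, 12am and 4am, which is 1, 5, 9, 13, 17 and 21 h after lights on, with 3 arrays, a to c, at each time. Strain, sex and age are not given in the sources used here, every group had the same feeding and lighting, and no treatment was named. The labels do not tell whether a time's arrays stand for single mice or for pools. The p values therefore speak only of the variation among these arrays, which may be technical.

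The 26S proteasome degrades proteins tagged with ubiquitin. Its barrel, the 20S core, has outer rings of alpha subunits that gate the entrance and inner rings of beta subunits, of which Psmb5, Psmb6 and Psmb7 cut peptide bonds. In cells exposed to interferon gamma these are replaced by Psmb8, Psmb9 and Psmb10, which form the immunoproteasome and change the peptides offered on MHC class I. The 19S cap recognises the tagged protein, removes the ubiquitin with its lid and unfolds the chain with a ring of ATPases in its base. The subunits are needed in fixed proportions, and the transcription factor Nrf1 raises many of their genes together when proteasome activity falls short. In the colon, the epithelium renews itself within days and turns over protein at a high rate.

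Values below are signals on the deposited linear scale, or differences of log2(signal + 16). Called means a limma adjusted p under 0.05, adjusted over all 12870 genes. The control ratio of 3′ to 5′ signal for Gapdh, which rises when RNA is degraded or labelled unevenly along its length, was 36.1 for 4am a, 34.3 for 4pm b, 18.2 for 4am b and 2.33 for 4pm c. It lay between 0.746 and 1.12 in the other 14 arrays. These 4 arrays all belong to the 4 o'clock times, so comparisons that use 4pm or 4am are given with and without them. All 10 markers of colon epithelium were among the genes tested, and so were 5 of 6 markers of pancreas. Because whole tissue was measured, fewer cells of a type and less RNA per cell cannot be told apart.

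No member was called as rhythmic over 24 h. The cosine fit called 0 of 42 members at adjusted p under 0.05, against 0.0389% of all genes, and 0 at unadjusted p under 0.05, against 3.95%. Fitted amplitudes ran from 0.02 to 0.64 on the log2 scale with a median of 0.17, and the median over all genes was 0.19. In the 14 arrays with a low Gapdh ratio the amplitudes ran from 0.02 to 0.26, and 1 member, Psmb9, passed the unadjusted limit, against 5.90% of all genes (amplitude 0.26 ± 0.08 SE, limma adjusted p = 0.7128). The same fit on 18 arrays gave Dbp, a clock output gene, an amplitude of 2.16. Light against dark called 0 members and 0% of all genes. At unadjusted p, 1 member passed (6.21% of all genes did): Psmb7, higher in the light by 0.46 ± 0.21 (limma adjusted p = 0.7494). In the 14 low-ratio arrays Psmb7 differed by 0.13 ± 0.14, 0 members were called (0% of all genes), and the 1 that passed at unadjusted p (7.10% of all genes did) was Psmb9, at -0.30 ± 0.13 (limma adjusted p = 0.6466). 8am against 8pm called 0 members at adjusted p and 0 at unadjusted p (0.00777% and 2.88% of all genes), and 12pm against 12am likewise 0 and 0 (0% and 8.11%). 4pm against 4am called 0 members and 0.0466% of all genes, but 13 members passed at unadjusted p, which is 31.0% of members against 19.7% of all genes. Without the 4 high-ratio arrays this comparison is 4pm a against 4am c, 1 array against 1, with the spread taken from the other times. It then called 0 members (0% of all genes) and passed 0 at unadjusted p (3.30% of all genes), and so few arrays say little about the 13. Without 4am c, which left only high-ratio arrays at 4am, the adjusted calls became 23 for 4pm against 4am and 7 for light against dark; leaving out any other array gave 0 for both.

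Some members differed between times when no curve was assumed. The limma test of any difference between the 6 times called 11 of 42 members (26.2%, against 17% of all genes): Psma4, Psmb5, Psmb7, Psmb8, Psmb9, Psmb10, Psmc1, Psmd2, Psmd7, Psmd8 and Psmd9. At unadjusted p the members' share was below that of all genes, with 15 of 42 (35.7%, against 42.3%). In the 14 arrays with a low ratio the test also called 11 (against 20.5%; 21 of 42 at unadjusted p, against 38.9%), of which 5 were the same: Psma4, Psmb7, Psmc1, Psmd7 and Psmd9. Leaving out 1 array moved the count in 18 arrays between 3 (without 4am b) and 24 (without 4am c), and it fell to between 4 and 7 without any of 8am a, b or c, 12pm a, b or c, 4pm a, 8pm a, b or c, 12am b or c, or 4am a. The members showed 2 patterns across the arrays: higher signals at 8am and 8pm, and large shifts in 4am a and 4am b.

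**Figure D1:**
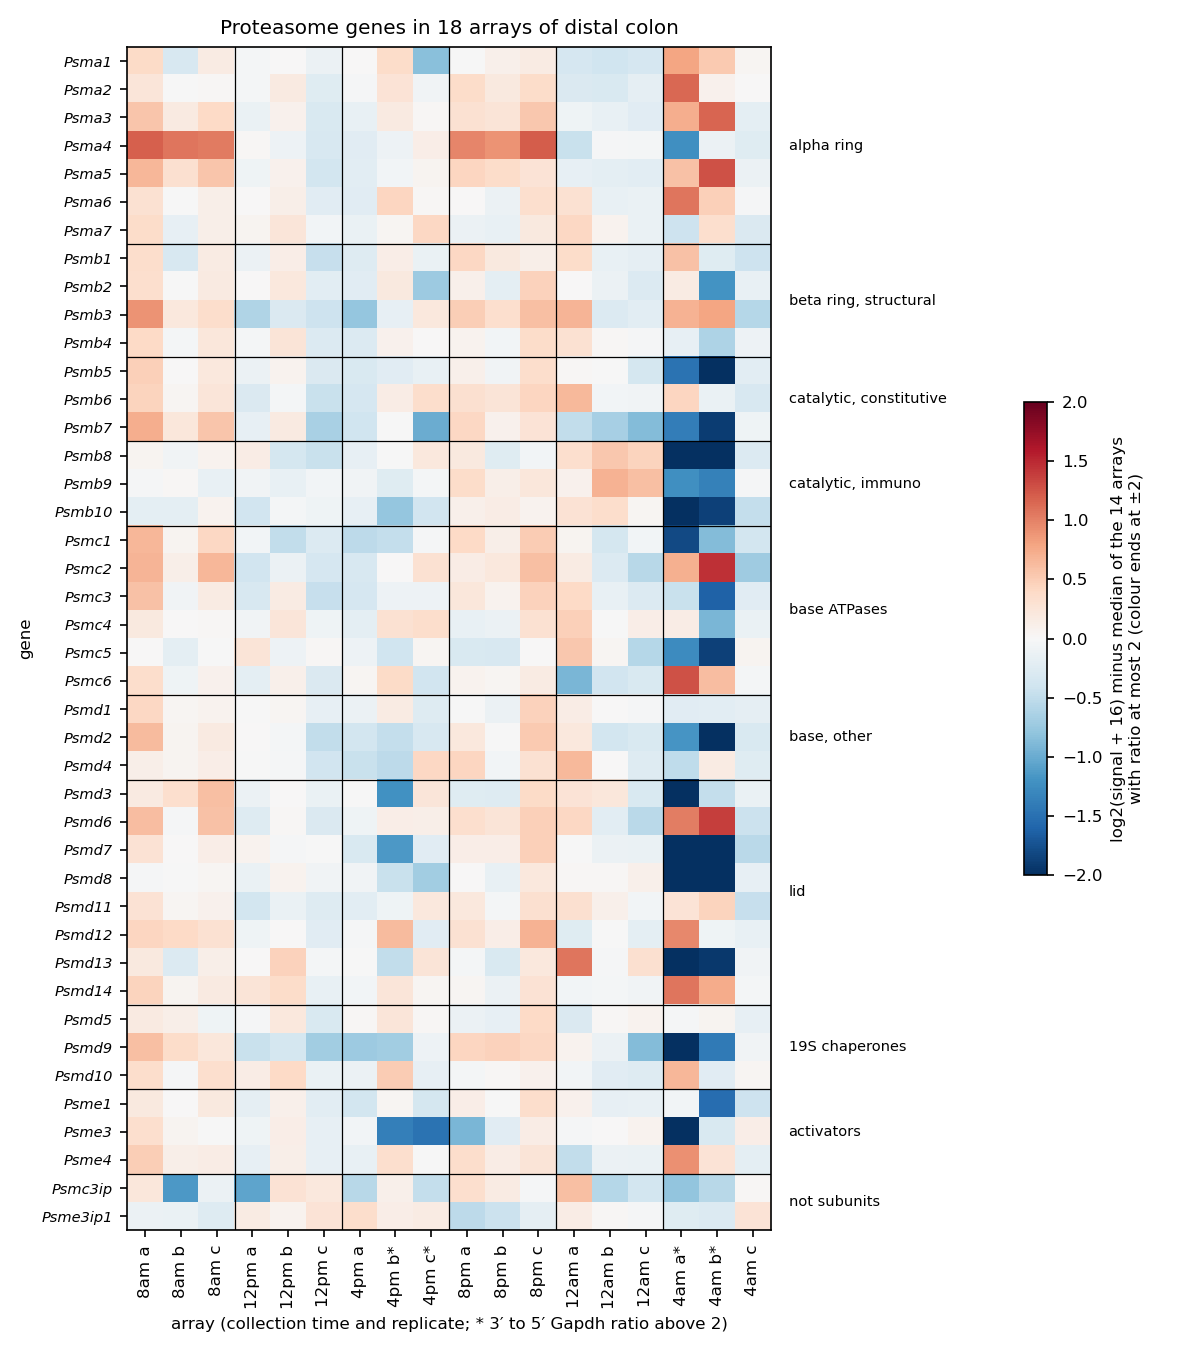
Each row is a gene, grouped by role, and each column an array; colour is log2(signal + 16) minus the gene's median over the 14 arrays with a Gapdh ratio of at most 2, and colours end at a difference of 2. The Psma4 row stands high in all 6 arrays of 8am and 8pm, and the columns 4am a and 4am b hold both the deepest blues, such as Psmd7 and Psmd13, and strong reds, such as Psmd6.

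The first pattern joined collection times 12 h apart. The 8 o'clock arrays are the 6 of 8am and 8pm, and the 12 o'clock arrays the 6 of 12pm and 12am. For a set of core, ATPase and lid subunits, signals were higher at 8 than at 12 o'clock. The immunoproteasome subunits did not follow, and neither did others, such as Psma7 (-0.06), Psmc5 (-0.17) and Psmd13 (-0.32). With the spread estimated from all 18 arrays, 3 of 42 members were called higher at 8 o'clock (7.14%, against 4.65% of all genes) and 0 lower (against 9.46%; 12 members, and 29.0% of all genes, passed in either direction at unadjusted p). With the 12 arrays of these times alone, an alternative added after the data had been seen that leaves out every array with a high ratio, 14 were called higher (33.3%, against 14.7% of all genes) and 1 lower (2.38%, against 18.5%). The 14 genes were the same with all 14 low-ratio arrays. The median difference over the members was 0.22, and 33 of 42 lay above 0; over all genes the median was -0.04, with 45.7% above 0. All 6 arrays of 8 o'clock lay above all 6 of 12 o'clock for 5 members (11.9%, against 5.85% of all genes), and below for 1 (2.38%, against 7.06%). The count in 18 arrays was 1 without any of 8am a, 8am c, 12pm a, 12pm c, 8pm a, 8pm b, 8pm c, 12am b or 12am c, 5 without 4am b, 8 without 4am a and 11 without 4am c. Quantile normalization kept 11 of the 14 calls in the 12 arrays, losing Psma2, Psmd2 and Psmd6, with 51.0% of all genes' calls higher in place of 44.3%. Median centring moved the median of all genes to 0.25, and 31 members were then called higher and 0 lower, with 83.3% of all genes' calls higher. The members' median lay above that of all genes by 0.26 with the deposited scaling, 0.11 after quantile normalization and 0.26 after centring. The median intensity of an array was 160.2 to 183.5 at 8 o'clock and 187.2 to 251.3 at 12 o'clock, without overlap. The trimmed mean was 500 in every array. Members were bright, with a median at percentile 85.8 of mean level among genes tested, and the shares of all genes are not limited to like levels. The part of either in the members' difference was not tested.

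**Figure D2:**
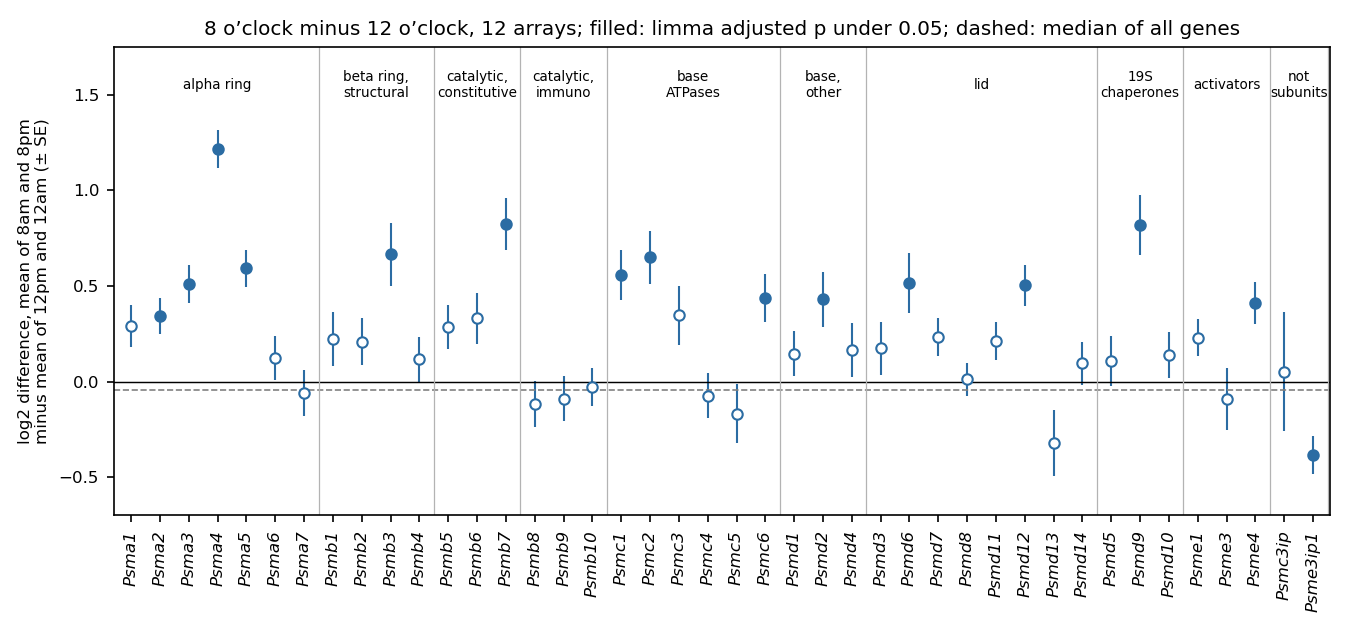
Points are the log2 difference, mean of 8am and 8pm minus mean of 12pm and 12am, with bars of 1 standard error, for 42 genes by role in the 12 arrays; filled points have a limma adjusted p under 0.05 and the dashed line is the median of all genes. Psma4 lies highest at 1.22, the 14 filled points above 0 come mostly from the alpha ring, the ATPases and the lid, and the 3 immunoproteasome subunits lie just below 0.

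The start sites of 37 of the 44 genes were matched to RefSeq promoters of mouse build GRCm38.p6; Psma8, Psmb1, Psmb2, Psmb7, Psmc3, Psmd3 and Psmd7 were not. The 250 bases before each start were searched on both strands for TGACNNNGC, the core of the element that Nrf1 and Nrf2 bind, for CACGTG, the E-box bound by clock and Myc family factors, and for CCAAT, the NF-Y box. The promoters below are those of Psma4 and Psmd9, members with wide differences between 8 and 12 o'clock, and of 2 catalytic subunits, the constitutive Psmb5 and the immunoproteasome's Psmb10. They are printed 5′ to 3′ on the gene's strand, and capitals mark the matches, which do not overlap each other.
Psma4, chr9:54950609-54950858, plus strand, E-box: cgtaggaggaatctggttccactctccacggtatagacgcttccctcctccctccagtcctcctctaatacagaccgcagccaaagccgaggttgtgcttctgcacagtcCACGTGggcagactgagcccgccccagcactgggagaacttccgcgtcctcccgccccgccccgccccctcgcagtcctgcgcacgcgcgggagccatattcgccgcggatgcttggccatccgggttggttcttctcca
Psmd9, chr5:123227940-123228189, plus strand, E-box and antioxidant core: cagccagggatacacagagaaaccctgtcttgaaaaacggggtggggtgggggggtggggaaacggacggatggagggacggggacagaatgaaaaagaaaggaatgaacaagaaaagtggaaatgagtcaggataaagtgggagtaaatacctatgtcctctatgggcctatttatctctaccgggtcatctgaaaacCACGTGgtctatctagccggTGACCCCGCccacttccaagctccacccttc
Psmb5, chr14:54617996-54618245, minus strand, antioxidant core: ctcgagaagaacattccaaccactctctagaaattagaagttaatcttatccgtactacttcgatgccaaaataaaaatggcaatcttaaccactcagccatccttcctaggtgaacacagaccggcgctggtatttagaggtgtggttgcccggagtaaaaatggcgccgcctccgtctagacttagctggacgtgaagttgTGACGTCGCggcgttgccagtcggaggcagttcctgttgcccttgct
Psmb10, chr8:105938393-105938642, minus strand, E-box: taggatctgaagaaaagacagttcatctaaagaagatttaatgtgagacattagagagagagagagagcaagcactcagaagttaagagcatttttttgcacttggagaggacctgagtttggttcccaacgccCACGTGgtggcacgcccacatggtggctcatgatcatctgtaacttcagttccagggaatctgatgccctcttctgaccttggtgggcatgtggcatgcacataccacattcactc

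The E-box began 140 bases before the start used for Psma4, 51 before that of Psmd9 and 116 before that of Psmb10. The RefSeq gene record of Psma4 begins earlier, at base 54950781, inside the printed stretch, so its E-box lies closer to that start. This motif was found in 5 of the 40 promoters of members (12.5%, some genes have a second start) and in 6.02% of all 32851 promoters. The difference between 8 and 12 o'clock in these 5 genes was 1.22 for Psma4, 0.82 for Psmd9, -0.03 for Psmb10, -0.09 for Psme3 and -0.38 for Psme3ip1, so genes with the motif stood at both ends of the range. The antioxidant core was in 12.5% of member promoters and 10.2% of all: Psmb5 (0.29), Psmb6 (0.33), Psmc6 (0.44), Psmd12 (0.50) and Psmd9 (0.82), of which the last 3 were called in the 12 arrays. The match of Psmb6 began 9 bases before the start used. The RefSeq gene record of Psmb6 begins earlier, at base 70525324, so this match lies inside that record and not before it. CCAAT was in 16 of the 40, against 33.8% of all promoters. Matches of letters are descriptions and do not show that a factor binds there.

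In the alpha ring, 4 of 7 subunits were called higher at 8 o'clock in the 12 arrays. Psma4 (alpha 3) had signals of 11249, 10290 and 10062 at 8am and 9702, 9162 and 11347 at 8pm. It had 4956, 4553 and 3939 at 12pm and 3600, 4848 and 4752 at 12am. It had 4178, 4591 and 5391 at 4pm and 2076, 4527 and 4148 at 4am. Every array of 8 o'clock was thus above every other array, and the 12 o'clock and 4 o'clock arrays overlapped. The difference from 12 o'clock was 1.22 ± 0.17 (SE; 2.32-fold), with a limma adjusted p of 0.0003288 in 18 arrays and 3.387e-06 in 12. It passed under all 32 alternatives (range 0.98 to 1.51). Psma4 has 1 probe set in the analysis, so no second one could be set beside it.

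Psma5 (alpha 5) ran from 5514 to 7205 (median 6029) at 8 o'clock and from 3516 to 4865 (median 4034) at 12 o'clock, without overlap. The difference was 0.59 ± 0.18 (1.51-fold; limma adjusted p = 0.03527 in 18 arrays, 0.0005361 in 12), and its other probe set gave 0.63. It passed under 21 of 32 alternatives, and lost the call after quantile normalization and without any of 8am a, 8am c, 12pm a, 12pm c, 8pm a, b or c, or 12am a, b or c, with adjusted p up to 0.09553. Psma3 (alpha 7) also showed no overlap, from 4954 to 6405 against 3526 to 4634 (0.51 ± 0.10 in 12 arrays, limma adjusted p = 0.001732). Its other, dimmer probe set gave -0.23 and was not called. Psma2, named after its values were seen, differed by 0.34 ± 0.09 (limma adjusted p = 0.01242). Psma7 did not differ detectably (-0.06 ± 0.12), with medians of 3677 and 3837. Psma1 (0.29) and Psma6 (0.12) were not called.

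**Figure D3:**
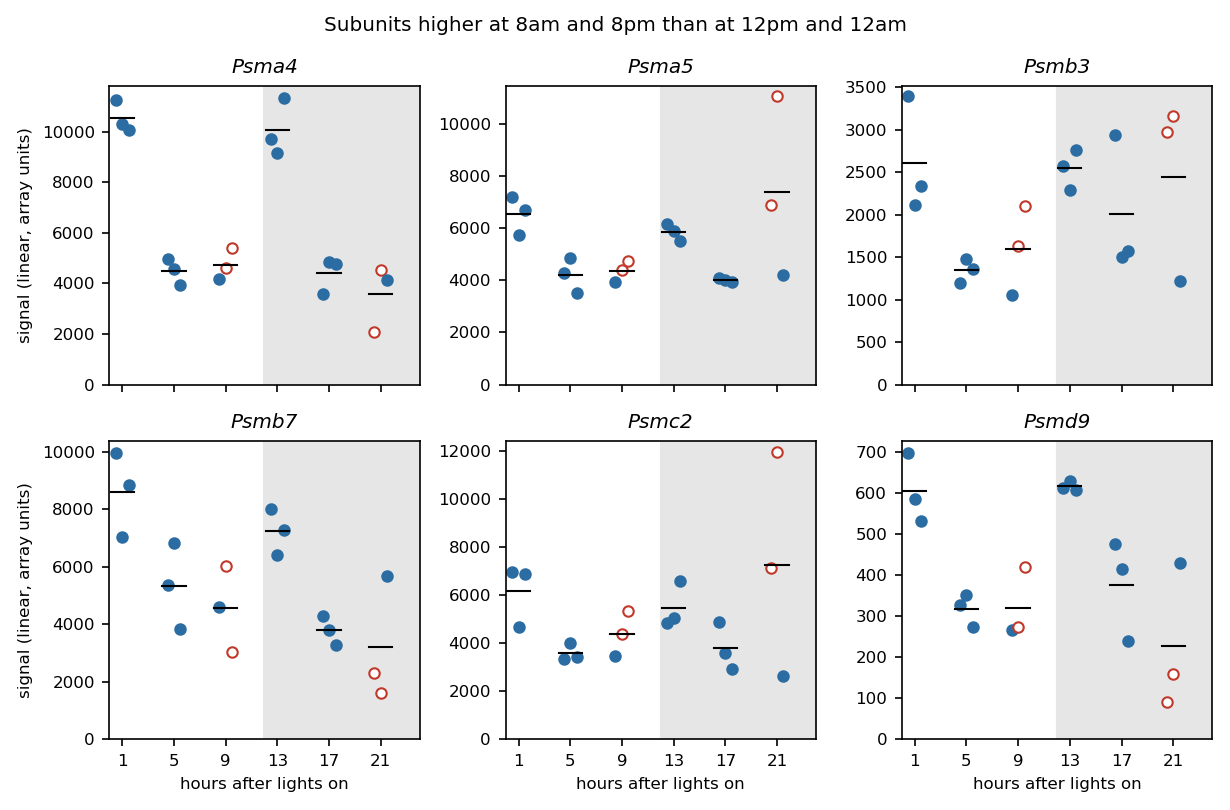
Signal on the linear scale against hours after lights on for 6 genes called higher at 8 o'clock in the 12 arrays; points are arrays, bars the mean of 3, open red points the arrays with a Gapdh ratio above 2, and the shaded time is the dark. The values at 1 and 13 h lie above those at 5 and 17 h for Psma4, Psma5 and Psmd9 without overlap, while Psmb7 overlaps through 12pm b, and Psmb3 and Psmc2 through 12am a.

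Among the structural beta subunits, which hold the inner ring together without cutting, 1 of 4 was called in the 12 arrays. Psmb3 (beta 3) had 3399, 2109 and 2333 at 8am and 2575, 2296 and 2764 at 8pm, against 1200.5, 1484 and 1357 at 12pm. At 12am, arrays b and c had 1500 and 1572 but array a had 2941, so the sets overlapped through this array. The difference was 0.67 ± 0.16 (limma adjusted p = 0.00667 in 12 arrays). Psmb1, Psmb2 and Psmb4 differed by 0.22, 0.21 and 0.12 and were not called, and their sets overlapped.

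The constitutive catalytic subunits split. Psmb7 (beta 2, the trypsin-like site) had 9983, 7037 and 8850 at 8am and 8016, 6415 and 7291 at 8pm. It had 5382, 6815 and 3848 at 12pm and 4300.0, 3796 and 3284 at 12am, so only 12pm b reached the range of 8 o'clock. The difference was 0.82 ± 0.25 (1.77-fold; limma adjusted p = 0.03864 in 18 arrays, 0.0005784 in 12), and it passed under 20 of 32 alternatives, with adjusted p up to 0.1246 after quantile normalization. Leaving out any of 8am a, 8am c, 12pm a, 12pm c, 8pm a, b or c, 12am b or 12am c ended its call in the fit of all times. Psmb5 (beta 5, the chymotrypsin-like site) ran from 3973 to 5815 at 8 o'clock and from 3287 to 4417 at 12 o'clock. Its difference of 0.29 ± 0.12 was not called (limma adjusted p = 0.06657 in 12 arrays). Psmb6 (beta 1, the caspase-like site) ran from 2367 to 3146 against 1695 to 3618, a difference of 0.33 ± 0.13 (limma adjusted p = 0.06534), with 12am a again the highest of its set.

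None of the immunoproteasome subunits was called between 8 and 12 o'clock, in 12 arrays or in 18. Psmb8 had 940, 867 and 953 at 8am and 1042, 770.0 and 878 at 8pm, against 1013, 706 and 662 at 12pm and 1147, 1321 and 1248 at 12am. Psmb9 had 712, 734 and 651 at 8am and 939, 786 and 848 at 8pm, against 687, 649.9 and 693 at 12pm and 765, 1182 and 1109 at 12am. Psmb10 had 2143, 2153 and 2599 at 8am and 2635, 2724 and 2602 at 8pm, against 1887, 2391 and 2329 at 12pm and 3021, 3146 and 2539 at 12am. The limma adjusted p of 8 against 12 o'clock in 12 arrays was 0.4818 for Psmb8, 0.5873 for Psmb9 and 0.8392 for Psmb10. For each of the 3 genes the highest of the 18 arrays was one of 12am, and every 12am array lay above every 12pm array. How many of all genes were ordered in this way was not counted. The difference of 12pm from 12am was -0.65 ± 0.17 for Psmb8, -0.56 ± 0.17 for Psmb9 and -0.40 ± 0.14 for Psmb10 in the 12 arrays. None passed (limma adjusted p = 0.08567, 0.1143 and 0.1571). That comparison called 0 members, 8 at unadjusted p (19%, against 18.4% of all genes), and 0.793% of all genes in the 12 arrays. Psmb8 and Psmb9 lie close together in the MHC region of chromosome 17, on either side of Tap1.

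**Figure D4:**
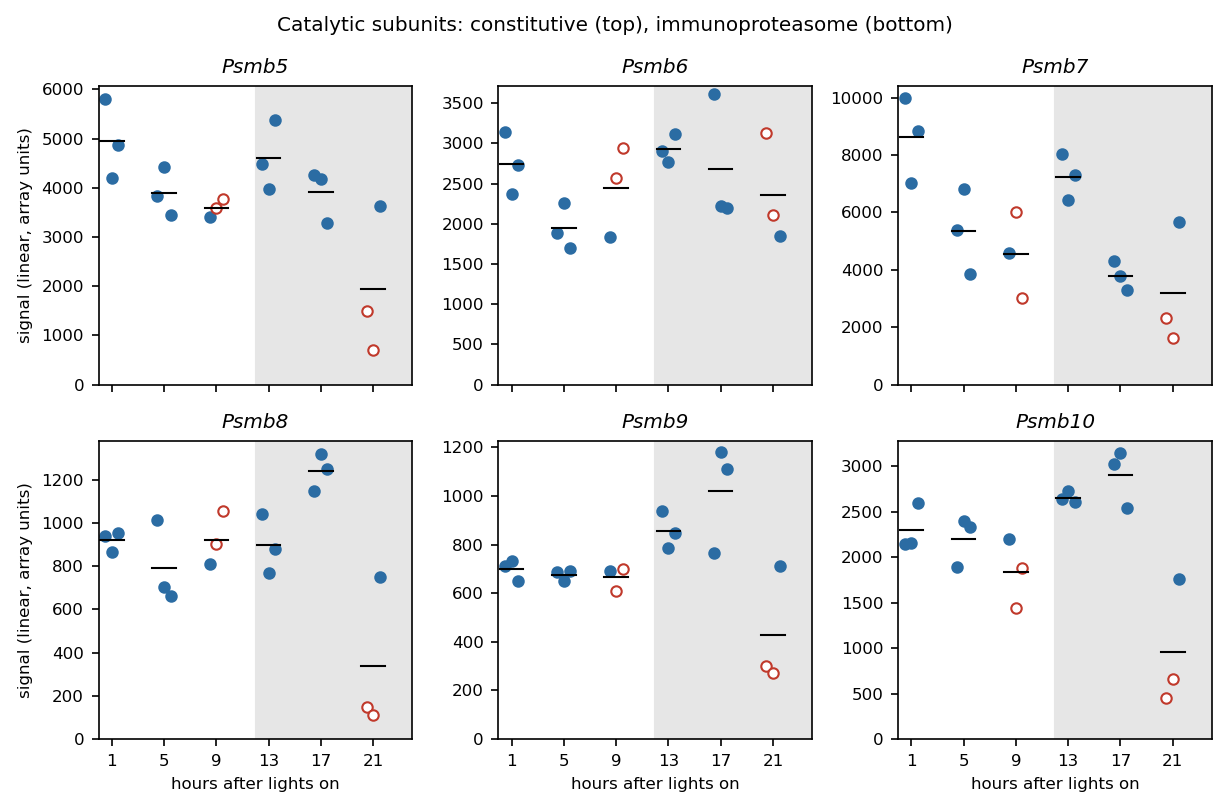
Signal on the linear scale against hours after lights on for the constitutive catalytic subunits (top) and the immunoproteasome subunits (bottom); points are arrays, bars the mean of 3, open red points the arrays with a Gapdh ratio above 2, and the shaded time is the dark. Psmb7 is highest at 1 and 13 h, the immunoproteasome subunits reach their highest signals at 17 h, and 4am a and 4am b lie lowest in every panel except Psmb6.

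In the base, 3 of 6 ATPases were called higher at 8 o'clock in the 12 arrays. Psmc1 (Rpt2, whose tail opens the gate of the core) ran from 1235 to 1906 (median 1586) at 8 o'clock and from 840 to 1241 (median 1063) at 12 o'clock. The difference was 0.56 ± 0.13 (1.47-fold; limma adjusted p = 0.005291), with the sets touching at 8am b and 12am a. Psmc2 (Rpt1), named after its values were seen, ran from 4678 to 6933 against 2928 to 4850 (0.65 ± 0.14, limma adjusted p = 0.003037). Psmc6 (Rpt4) ran from 1655 to 2229 against 918 to 1879.8 (0.44 ± 0.12, limma adjusted p = 0.01491). Psmc3 (0.35 ± 0.15), Psmc4 (-0.07 ± 0.12) and Psmc5 (-0.17) were not called. Of the base subunits that are not ATPases, Psmd2 (Rpn1, a scaffold that docks ubiquitin shuttles) ran from 2801 to 4367 against 1988 to 3274 (0.43 ± 0.14, limma adjusted p = 0.03301). Psmd1 (0.15), the other large scaffold, and Psmd4 (0.17), a ubiquitin receptor, were not called.

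In the lid, 2 of 8 subunits were called in the 12 arrays, both named after their values were seen: Psmd6 (Rpn7, 0.52 ± 0.16, limma adjusted p = 0.0197) and Psmd12 (Rpn5, 0.50 ± 0.11, limma adjusted p = 0.003078). Psmd12 ran from 1602 to 2384 against 1241 to 1475, without overlap. Psmd7 (Rpn8, the partner of the deubiquitinase) was above 12 o'clock by 0.23 ± 0.10, Psmd11 by 0.21 and the deubiquitinase Psmd14 itself by 0.10, none of them called. Nor were Psmd3 (0.17) and Psmd13 (-0.32) called. Psmd8 hardly moved over the 14 low-ratio arrays, with an SD of 0.10 on the log2 scale, the smallest of any member, against a median of 0.27 over members and 0.33 over all genes.

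Among the 19S assembly chaperones, which help the base form and are absent from the finished proteasome, 1 of 3 was called. Psmd9 (p27) had 697, 585 and 532 at 8am and 611, 629 and 607 at 8pm, against 327, 350 and 273 at 12pm and 475, 413 and 239 at 12am. Every array of 8 o'clock lay above every array of 12 o'clock, with a difference of 0.82 ± 0.16 (1.77-fold; limma adjusted p = 0.00149 in 12 arrays). Its second probe set gave 0.12 with a limma adjusted p of 0.6937 over probe sets, so the probe sets of this gene did not move alike. Psmd5 (0.11) and Psmd10 (0.14) were not called. Of the activators, Psme4 (PA200) was called at 0.41 ± 0.11 (limma adjusted p = 0.009757; 2087 to 2707 against 1360.0 to 2090), whereas Psme1 (PA28 alpha, 0.23 ± 0.10) and Psme3 (PA28 gamma, -0.09 ± 0.16) were not. Psme3ip1 went the other way, from 787 to 1051 at 8 o'clock against 1122 to 1373 at 12 o'clock (-0.38 ± 0.10, limma adjusted p = 0.008785, no overlap). Psmc3ip was not called (0.05 ± 0.31).

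The probe sets of the same gene bore on the same contrast. For Psmc6 all 3 probe sets were higher at 8 o'clock in the 12 arrays (0.44, 0.78 and 0.95), and for Psmd6 both (0.52 and 0.37). The second brightest probe sets of Psma3 (-0.23), Psmb3 (0.46) and Psme4 (0.19) were not called, although the brightest of each was. A further probe set of Psme4 was called higher (0.57). For Psmd11, not called with its brightest probe set, 2 of 5 probe sets were called higher (0.79 and 0.45) and the dimmest was called lower (-0.87). For Psmc2 the dimmest of 3 probe sets was called lower (-0.68) while the other 2 were called higher. Chosen after their values were seen, dimmer probe sets of Psma1 (-0.59), Psmb1 (-0.39 and -0.52), Psmd13 (-1.32) and Psme4 (-0.75) were also called lower, although the brightest of none of these genes was.

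Other measures moved with the same contrast. The summed signal of the 10 colon epithelium markers was 149200 to 178300 at 8 o'clock and 109900 to 151200 at 12 o'clock, and 5 of the 10 were called higher in the 12 arrays. Summed pancreas markers were 18200 to 31740 against 25640 to 115700 (4 of 5 called lower), highest in 12am b, followed by 12am a at 61150. Cela1 and Sycn, both in this sum, were at 6116 and 11910 or more in all 18 arrays. At 8 o'clock Cpa1 ran from 6.78 to 14.5, Prss2 from 65.7 to 168 and Ctrb1 from 25.2 to 84.6. At 12 o'clock they ran from 69.7 to 19780, 365 to 26907 and 102 to 23883. Squamous epithelium markers summed to 432 to 544 against 572 to 1334 (1 of 3 called lower). Smooth muscle markers summed to 46300 to 76110 against 48520 to 81290 (1 of 7 called higher). Leukocyte markers summed to 4773 to 9301 against 5712 to 9047 (1 of 6 called lower). Of all genes, 14.7% were called higher and 18.5% lower in the 12 arrays. The part of these markers in the difference of the proteasome genes was not tested.

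The second pattern lay in 4am a and 4am b, which enter every comparison with 4 o'clock in 18 arrays. Against 4 o'clock (4pm and 4am, 6 arrays), 13 of 42 members were higher at 8 o'clock in 18 arrays (31.0%, against 9.45% of all genes) and 0 were lower (against 12.2%; 19 members, and 38.1% of all genes, passed in either direction at unadjusted p). In the 14 low-ratio arrays, which leave 2 arrays of 4 o'clock (4pm a and 4am c), 12 were higher (28.6%, against 6.10%) and 1, Psme3ip1, was lower (against 7.01%). Of the 13, 6 were among the 12: Psma4, Psmb7, Psmc1, Psmd7, Psmd9 and Psme1. This comparison shares the 8 o'clock arrays with the one above. 12 o'clock against 4 o'clock called 6 members higher (14.3%, against 8.44% of all genes) and 1 lower (2.38%, against 11.1%) in 18 arrays. In the 14 low-ratio arrays it called 0 (0.0622% of all genes), and 3 passed at unadjusted p (14.1% of all genes). The count of 7 became 1 without 12pm a, 12pm b or 4pm b, 2 without 12am c, 4am a or 4am b, 3 without 12pm c, 12am a or 12am b, and 24 without 4am c, the only 4am array with a low ratio. After median centring, the median difference of the members from 4 o'clock was -0.13 in place of 0.17, the median of all genes moved from 0.05 to -0.24, and 3 were called higher and 4 lower.

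Cell markers also differed in these comparisons. At 8 against 4 o'clock in 18 arrays, 6 of 10 colon epithelium and 1 of 7 smooth muscle markers were called higher (9.45% of all genes were). Called lower were 2 of 6 leukocyte, 2 of 5 pancreas and 1 of 3 squamous epithelium markers (12.2% of all genes were). The summed leukocyte signal was 16180 in 4am a and 14920 in 4am b, against 4773 to 11800 in the other 16 arrays. Summed smooth muscle markers were 20570 in 4am a and 58190 in 4am b, against 34860 to 81290 in the others. Their part in the values of the proteasome genes was not tested.

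The immunoproteasome subunits had their lowest signals in 4am a and 4am b. Of the other high-ratio arrays, 4pm b also lay below the range of the 14 low-ratio arrays for 2 of the genes. These were Psmb9 (609, against a lowest of 649.9) and Psmb10 (1440, against 1759). For Psmb8 4pm b lay within that range, and so did 4pm c for all 3. Psmb8 had 150 and 112 in 4am a and 4am b, against 750 in 4am c and 808, 900 and 1057 at 4pm. Psmb9 had 301 and 273 against 712, and 690, 609 and 701 at 4pm. Psmb10 had 449 and 662 against 1759, and 2196, 1440 and 1883 at 4pm. The 3 genes were called higher at 12 o'clock than at 4 o'clock, by 1.04 ± 0.31, 0.68 ± 0.20 and 1.04 ± 0.24 (limma adjusted p = 0.03357, 0.0319 and 0.0155 in 18 arrays), and kept the call under 17, 19 and 28 of 31 alternatives. 4am c stood nearer to the other low-ratio arrays, at 0.27, 0.02 and 0.48 below the median of the 14 for Psmb8, Psmb9 and Psmb10. For Psmb10 4am c was the lowest of the 14. In the 14 arrays none of the 3 genes was called.

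Several lid subunits were low in 4am a and 4am b, although not all: Psmd6 stood 1.02 and 1.38 above its median over the 14 low-ratio arrays, and Psmd14 1.06 and 0.74. Psmd7 had 80.8 and 297 in 4am a and 4am b against 900 in 4am c, and 1066, 587 and 1127 at 4pm. Psmd8 had 635 and 619 against 2643, and 2826, 2163 and 1828 at 4pm. Psmd13 (Rpn9) had 26.7 and 247 against 940, and 974, 697 and 1180.0 at 4pm. Their differences of 12 from 4 o'clock in 18 arrays were 1.31 ± 0.36, 0.97 ± 0.27 and 1.43 ± 0.48, all called, with limma adjusted p of 0.02623, 0.02729 and 0.0472. Psmd13 passed under 7 of 31 alternatives, and of the 18 arrays, leaving out 4pm c or 4am c kept the call and leaving out any other lost it.

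Other subunits had their highest signal of the 18 arrays in 4am a or in 4am b. Psmc6 had 4246 and 2686 in 4am a and 4am b against 1712 in 4am c, and was called lower at 12 than at 4 o'clock by -0.65 ± 0.20 (limma adjusted p = 0.03854 in 18 arrays, not called in 14). Psma5 had 6872 and 11064 against 4207, and Psmc2 had 7133 and 11949 against 2628. Over the 42 members, 14 lay below the range of the 14 low-ratio arrays in both 4am a and 4am b (19.3% of all genes did) and 7 lay above it in both (17.1% of all genes). The lowest of the 18 arrays was 4am a or 4am b for 21 of 42 members (against 35.4% of all genes), and the highest for 14 (33.3%, against 32.5%). Psmb5 had 1499 and 705 against 3627 in 4am c, and Psme1 had 1515 in 4am b alone, with 4212 in 4am a. Psme3 was at 49.98 in 4am a, 376 in 4am b and 516 in 4am c, and at 172 and 160 in 4pm b and 4pm c. Psmd5 stayed within its usual range throughout, from 747 to 1233 over 18 arrays, with 915 and 965 in 4am a and 4am b.

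Probe sets of a single gene parted in 4am a. For Psmb3 the brightest probe set stood 0.70 above its median over the 14 low-ratio arrays and the other at -4.57. For Psmd4 the values were -0.51 and -5.31, and for Psme4 they ran from 1.02 down to -3.54 over 5 probe sets. Psmd13 had -4.55 and -4.10 for its brightest probe sets, and -0.16 and 0.63 for the dimmest. How far a gene stood from its usual signal in this array thus differed with the probe set read, and the position of each probe set along the transcript was not tested.

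**Figure D5:**
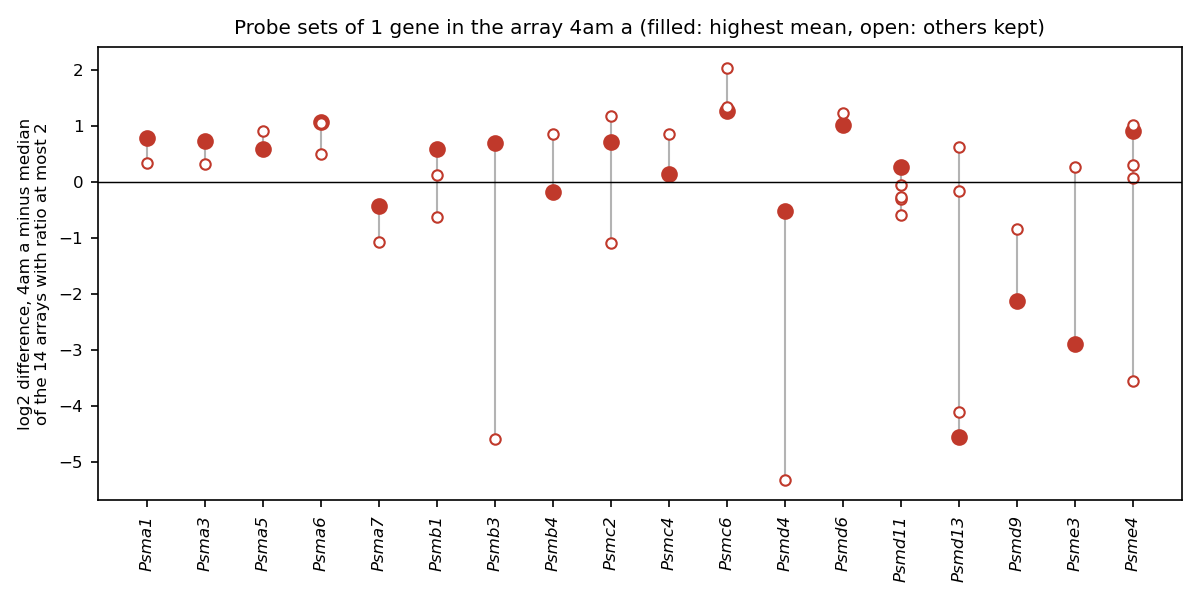
For each member with several probe sets, points show log2(signal + 16) in the array 4am a minus the probe set's median over the 14 arrays with a Gapdh ratio of at most 2; filled points are the probe sets with the highest mean and open points the others. The points of Psmb3, Psmd4, Psmd13 and Psme4 span over 4 log2 units, and those of Psma6 and Psmd6 lie within 1.

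Partners of the proteasome were read from lists set for this report. Their counts at 8 against 12 o'clock in 12 arrays stand beside 14.7% of all genes called higher and 18.5% lower, and those of any difference beside 17%. Of 6 tested assembly chaperones of the core and its inhibitor, the test of any difference called Psmg2 and Psmf1 (limma adjusted p = 0.03671 and 0.04695), a chaperone of the alpha ring and the inhibitor PI31. Psmg2 had 93.9 and 192 in 4am a and 4am b against 789 in 4am c, and Psmf1 had 184 and 201 against 593. In the 14 low-ratio arrays neither was called (limma adjusted p = 0.05593 and 0.05851). Pomp, which matures the core, was the 1 called higher at 8 than at 12 o'clock in 12 arrays (0.49, limma adjusted p = 0.002215). Its signals were 4142, 3234 and 3238 at 8am and 3883, 3139 and 3964 at 8pm, against 2736, 2793 and 2343 at 12pm and 2483, 2449.9 and 2469 at 12am, without overlap.

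Of 12 tested proteins that dock on the proteasome or carry ubiquitinated proteins to it, 5 were called higher at 8 o'clock in 12 arrays and 2 lower. Ubqln2, a shuttle (0.89, limma adjusted p = 0.0007555), and Uchl5, a deubiquitinase of the cap (0.78, limma adjusted p = 0.0008234), had the widest differences, and Zfand5, an activator of the 26S form, rose by 0.49. Sem1, a small lid subunit outside the symbol rule, was also among the 5 (0.50). Ubqln4 (-0.52) and Zfand2a (-0.61) were the 2 lower. The single tested gene of ubiquitin activation, Uba6, was not called.

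Among 10 tested genes of Nrf1 and Nrf2 control, 1 was called higher and 1 lower at 8 o'clock in 12 arrays: Gclc, a glutathione synthesis enzyme (1.01, limma adjusted p = 0.0001886), and Srxn1 (-0.35). Nfe2l1, which encodes Nrf1 itself, was at -0.19 and Nfe2l2, which encodes Nrf2, at -0.01, neither called. Of 11 genes of peptide supply to MHC class I, 3 were called higher and 1 lower. The chaperones Pdia3 (1.31) and Canx (0.84) led the 3, which B2m completed (0.30), and the regulator Nlrc5 was lower (-0.63). Neither Tap1 (-0.39) nor Tap2 (0.13), which carry the peptides into the endoplasmic reticulum, was called. Of 7 tested interferon genes, 1 was higher (Ifit1, 0.55) and 2 lower, Stat2 (-1.20) and Irf1 (-0.37).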

How the data were processed

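The deposited table holds 1 intensity per probe set and array on a linear scale, made by the authors with GCOS, per the submitters' processing notes (version and target scaling not given in the sources used here). In the deposited values the trimmed mean (2% trim) of every array was 500. The median intensity of an array ran from 126.7 to 251.3; 3 arrays per time limit the precision. Of 45101 probe sets, 64 controls were left out; of the other 45037, 34945 had 1 gene symbol in the platform annotation, 932 had several and 9160 were not listed. Signals were put on the scale log2(signal + 16), so differences understate changes of dim genes. Probe sets with a mean under the 40th percentile (7.10) were dropped, which left 27022, and 12870 genes were each read from their brightest one.

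Models were fitted over all genes with limma 3.58.1 in R 4.3.3 (moderated, with an intensity trend, Benjamini-Hochberg adjustment): group means of the 6 times with 7 contrasts and a test of any difference (12 residual degrees of freedom), and a 24 h cosine (15). Tests were two-sided. The fits were tested on simulated data. The members and gene lists were chosen with earlier results of these data known. Named by rule were the 6 catalytic subunits and, in each other role, up to 3 members with the lowest p of any difference and 1 with the highest. Of the other pathway genes, those with the lowest p of that test were named. The genes named by rule are given by values per array, by ranges or by differences alone. Other named genes were named after their values were seen. Fits of 12 and 14 arrays were also chosen after seeing the data. Alternatives tried were the pseudocount, scaling, filter, choice of probe set, array weights, the Gapdh ratio, a replicate block and leaving out arrays. Promoters came from RefSeq (GRCm38.p6). A planned comparison of protein sequences was not run.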

Additional observations from a re-analysis of the deposited data

How the results depend on the processing

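Counts below are members called by limma at adjusted p under 0.05. The count of 3 for 8 against 12 o'clock became 8 after median centring and 5 with no filter. With array quality weights, which gave 4pm a a weight of 6.03 and 4am c one of 0.119, the calls were 32 for any difference, 13 for light against dark, 1 for 12pm against 12am, 19 for 4pm against 4am, 18 for 8 against 12, 20 for 8 against 4 and 22 for 12 against 4 o'clock. Without the 3 highest Gapdh ratios, and without all 4 high ones, 8 against 12 o'clock gave 15 and 12 against 4 o'clock 0; the 12 arrays of 8 and 12 o'clock alone also gave 15. With the Gapdh ratio as a covariate there were 5 for any difference, 3 for 4pm against 4am, 11 for 8 against 12, 3 for 8 against 4 and 0 for 12 against 4 o'clock. The cause of these changes was not tested. Leaving out 1 array gave 3 to 24 for any difference, 0 to 7 for light against dark, 0 to 23 for 4pm against 4am, 1 to 11 for 8 against 12, 9 to 18 for 8 against 4 and 1 to 24 for 12 against 4 o'clock, and 0 to 0 for the cosine, 8am against 8pm and 12pm against 12am. The array letters showed no clear pairing of the samples: of 45 same-letter pairs, 6 had deviations that correlated above 0.1 (highest 0.295). The mean r was -0.012 for the same letter and 0.006 for different letters and times. With 3 arrays a time, such deviations cannot show that the letters are unrelated. With the letter as a replicate block, the calls were 10 for any difference, 2 for 8 against 12, 13 for 8 against 4, 7 for 12 against 4 o'clock and 0 for the others. Over 23 calls of named members, 534 alternatives kept the call, 182 lost it and 0 reversed the sign. With 3 arrays a time, differences within the spread of single arrays could not be resolved, and a 24 h curve rests on 6 times of 1 day.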
